A study of Mus musculus with 221 samples.

Results

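The 41 genes described here are 18 genes of DNA replication and 23 genes of mitosis, chosen by name from the 23244 features measured in 221 single cells. The tissue was medial neocortex at E18.5 from the mouse strain C57BL/6J, and the labels name no treatment or altered allele. Pool 2 gave 99 of the cells and pool 1 the rest, and each of the 2 pools held 8 neocortices. The labels do not tie a cell to an animal within its pool, and they give the sex as female, while 99 of the 221 cells held a Y-linked transcript. Values are TPM, a length-normalized measure of each gene's share of a cell's transcripts, so levels can be set side by side between genes. Each cell has a lowest value of 1.33 to 2.998 TPM, the floor, which all features without signal share, and a gene was called detected in a cell when its value lay above that floor. The replication genes are Mcm2, Mcm3, Mcm4, Mcm5, Mcm6, Mcm7, Pcna, Tyms, Rrm1, Rrm2, Gins2, Gins4, Cdc6, Uhrf1, Slbp, Rfc4, Hat1 and Cdca7. The mitosis genes are Mki67, Top2a, Cdk1, Ccna2, Ccnb1, Ccnb2, Cenpa, Cenpe, Cenpf, Aurka, Aurkb, Bub1, Bub1b, Ube2c, Birc5, Tpx2, Nusap1, Hmgb2, Plk1, Cdc20, Prc1, Racgap1 and Cdca8.

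A dividing cell copies its DNA in S phase and separates the copies in mitosis. The MCM proteins form the ring that unwinds DNA at the fork, Pcna is the clamp that holds the polymerase, and ribonucleotide reductase (Rrm1, Rrm2) and thymidylate synthase (Tyms) supply the building blocks. Later in the cycle the kinase Cdk1 acts with the cyclins encoded by Ccna2, Ccnb1 and Ccnb2, the Aurora and Polo kinases and the kinetochore proteins set up the spindle, and Cdc20 and Ube2c mark proteins for destruction so that the cell can leave mitosis. In textbook accounts, replication genes are switched by E2F factors, and many mitosis genes by a complex that binds a short element called CHR, often with CCAAT boxes bound by NF-Y. In the embryonic cortex the dividing cells are radial glia, the neural stem cells, and intermediate progenitors, which carry the transcription factor Eomes. Neurons do not divide, and Neurod6 is a transcription factor of the excitatory neuron lineage.

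The promoter letters of the 2 groups differed. RefSeq promoter windows on GRCm38.p6, running from 250 bases before to 50 bases after a gene's start, were found for 15 of 18 replication genes (not Mcm4, Gins2 and Gins4) and 20 of 23 mitosis genes (not Ccna2, Aurkb and Tpx2). The CHR letters TTTGAA, searched on both strands, were in 15 of 20 mitosis genes, in 1 of 15 replication genes (Mcm2) and in 20.2% of all 27025 genes with a window of that length. Of the 15 mitosis genes with a match, 14 had one within 50 bases of the start, against 28.3% of all genes with a match. The letters CCAAT were in 18 of 20 mitosis genes, 11 of 15 replication genes and 41.1% of all genes. Any of the E2F words TTTCCCGC, TTTGGCGC, TTTCGCGC and TTTGCCGC was in 7 of 15 replication genes (Mcm3, Mcm5, Mcm6, Mcm7, Cdc6, Uhrf1 and Cdca7), in 1 of 20 mitosis genes (Cdk1) and in 2.6% of all genes, and words on opposite strands can overlap. TATAAA was in none of the windows of either group and in 15.7% of all genes. These matches describe letters and were not tested as binding sites.

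The 5 stretches below, chosen after the matches were seen, show each kind of match in the 200 bases before the start. The capitals mark E2F words in Mcm6, a helicase subunit, and in Cdca7, a chromatin-linked zinc finger gene of S phase. In Cdk1, Ube2c and Cdc20 they mark TTTGAA and CCAAT on either strand (TTCAAA and ATTGG on the other).
Mcm6 (chr1:128359706-128359905, minus strand): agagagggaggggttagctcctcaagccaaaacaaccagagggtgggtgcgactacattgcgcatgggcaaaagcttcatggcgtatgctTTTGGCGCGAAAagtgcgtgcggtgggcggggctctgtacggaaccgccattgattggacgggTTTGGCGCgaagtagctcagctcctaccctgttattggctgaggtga
Cdca7 (chr2:72476019-72476218, plus strand): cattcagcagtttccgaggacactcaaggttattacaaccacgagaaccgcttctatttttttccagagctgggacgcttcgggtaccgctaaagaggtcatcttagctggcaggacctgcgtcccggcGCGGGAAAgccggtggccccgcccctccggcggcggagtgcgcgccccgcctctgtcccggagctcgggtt
Cdk1 (chr10:69352913-69353112, minus strand): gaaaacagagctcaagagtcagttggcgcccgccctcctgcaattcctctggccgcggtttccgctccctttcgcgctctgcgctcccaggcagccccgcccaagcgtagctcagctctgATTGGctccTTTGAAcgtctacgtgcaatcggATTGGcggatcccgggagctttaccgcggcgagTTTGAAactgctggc
Ube2c (chr2:164769729-164769928, plus strand): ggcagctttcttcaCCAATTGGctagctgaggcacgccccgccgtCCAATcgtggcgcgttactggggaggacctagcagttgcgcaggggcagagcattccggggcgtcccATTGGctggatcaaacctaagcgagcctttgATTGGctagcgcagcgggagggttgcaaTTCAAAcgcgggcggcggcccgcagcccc
Cdc20 (chr4:118437344-118437543, minus strand): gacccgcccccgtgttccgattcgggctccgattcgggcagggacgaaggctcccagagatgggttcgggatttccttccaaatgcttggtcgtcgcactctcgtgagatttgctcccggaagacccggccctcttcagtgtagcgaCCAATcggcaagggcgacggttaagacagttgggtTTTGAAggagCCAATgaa
The E2F word of Cdk1 is left in lower case. In Mcm6 the first 12 capitals are overlapping words on opposite strands, and in Ube2c the first 8 are overlapping CCAAT letters on opposite strands. The TTTGAA nearest to the RefSeq start lay 15 bases before it in Cdk1, 29 in Ube2c and 18 in Cdc20. A second annotation, GENCODE, places the gene start of Cdca7, Cdk1, Ube2c and Cdc20 inside the stretch shown. The end of the window was found in an annotated transcript for 13 of 17 replication windows (not that of Mcm6) and 19 of 21 mitosis windows.

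Low values need care in this series, most of all for the mitosis genes. Of the 1006 cell and gene pairs in which a mitosis gene was detected, 29.1% lay under 10 TPM, against 9.78% of the 1350 pairs for replication genes. Cell names carry a letter A or B whose meaning the labels do not give. In pool 2 cells with the letter A, 47.1% of the mitosis detections lay under 10 TPM, against 9.14 to 20.2% in the other 3 sets of cells. Wells that share a column number with a cell holding a mitosis gene at 1000 TPM or more also differed. In pool 1 cells with the letter A, that gene was above the floor in 14 of 43 such pairs (32.6%, median of those 3.09 TPM). These pairs rest on 2 cells at that level. In wells that share neither column nor row it was above the floor in 6.16% of pairs (median 175 TPM). In pool 2 cells with the letter A the shares were 35.7% and 26.2%. For the letter B, pool 1 had 20.9% against 16.7%. Pool 2 had 33.3% (6 of 18 pairs, 0% of the 6 under 10 TPM) against 30%. Wells sharing a row letter instead had 5% and 30.4% for the letter A in pools 1 and 2, and 11.1% and 21.1% for the letter B. What part these low values have in a detection was not tested, so counts are given above the floor and again at 100 TPM or more. Besides, 19 cells held both Xist and a Y-linked transcript, and 1 cell held all 6 microglia markers. The 4 endothelial markers stayed at the floor in the gated cells.

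Cells were sorted by markers that are not among the 41 genes. The interneuron gate, at least 3 of 5 markers (Gad1, Gad2, Dlx1, Dlx2 and Dlx5), held 28 cells. The radial glia gate, at least 5 of 8 markers (Hes5, Hes1, Slc1a3, Sox9, Pax6, Sox2, Vim and Mfge8), held 45 of the others. The Eomes class, the next cells with Eomes above the floor, held 18. The Neurod6 class, the next cells with Neurod6 at 100 TPM or more, held 127, and 3 cells remained. The gates are broad: 34 of the 45 cells in the radial glia gate and all 18 of the Eomes class also had Neurod6 at 100 TPM or more. Eomes was above the floor in 16 cells of the radial glia gate and 2 of the interneuron gate, which were filled before the Eomes class. The radial glia gate also held the cell with all 6 microglia markers, which had Neurod6 at 100 TPM or more. In the same gate up to 5 of 6 oligodendrocyte precursor markers were detected in a cell. Cells with at least 4 mitosis genes at 100 TPM or more held at most 1 microglia and 3 oligodendrocyte precursor markers. The Eomes class is named for its gene alone. Its summed excitatory neuron markers, Neurod6 among them, had a median of 2344 TPM, against 2322 in the Neurod6 class. A median of 5 of 8 was detected in each. Neurod6 alone, the gene that sorted the Neurod6 class, had medians of 2072 and 1817 TPM in these classes. The summed intermediate progenitor markers of the Eomes class, Eomes among them, had a median of 527 TPM. That of the Neurod6 class was 383 TPM and that of the radial glia gate 588. Shares of cells carry 95% intervals by the exact Clopper-Pearson method. These hold counting error and no more, since cells of a pool are not replicates.

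Replication genes were spread over most cells at low numbers. At least 4 of the 18 were detected in 181 of 221 cells (81.9%, interval 76.2 to 86.7%), and the median cell held 5. A detected replication gene stood at a median of 112.1 TPM. Pcna was detected in 181 cells, Mcm7 in 156, Slbp, which binds histone messages, in 148, and Gins4, part of the replication helicase, in 50.7% of the cells. Rarer were Cdc6, which loads the helicase, in 5 cells, Uhrf1, which helps copy DNA methylation, in 17, and Mcm3 in 23. Members of a single complex therefore ranged widely: Mcm6 was found in 70 cells, Mcm4 in 48, Mcm5 in 35 and Mcm2 in 34. The other replication genes lay between these, from Gins2 in 14.9% to Rfc4 in 46.2% of the cells. The highest values were 1767 TPM for Rrm2, 1237 for Slbp and 993 for Pcna, all in cell H10A of pool 1, and 1106 for Mcm6 in E2A of pool 2.

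Mitosis genes were rarer, with a lower median where detected (61.2 TPM) and higher peaks. In pool 2 cells with the letter B that median was above the one of replication genes (139.7 against 127.7 TPM). The same held in the Eomes class (220.3 against 135.7 TPM), while in the other sets by pool and letter it was lower. At least 4 of the 23 were detected in 82 of 221 cells (37.1%, interval 30.7 to 43.8%), and the median cell held 3. Hmgb2, a chromatin protein, was detected in 163 cells, but 25 of these values lay under 10 TPM and only 27 cells reached 100 TPM. The next were Ube2c in 70 cells, and Cdk1 and Racgap1 in 60 each. The rarest were Bub1 in 14 cells and Bub1b in 17, both of the spindle checkpoint, then Aurkb, an Aurora kinase, and Mki67, the common proliferation marker, in 25 each. Mki67 reached at most 165 TPM, while Ube2c reached 7905, Birc5 2713, Cdc20 2600 and Cenpa 2470. All of these maxima were in cell E8A of pool 2. Mki67 was detected in 15 of the 25 cells that had at least 4 mitosis genes at 100 TPM or more, against 24 for Ube2c, 24 for Hmgb2 and 22 for Cdk1. Genes at 100 TPM or more in at most 1 cell outside those 25 were Prc1 (16 cells there and 0 of the other 196), Top2a (13 and 0), Cenpe (9 and 0), Cenpf (5 and 0), Ccnb1 (13 and 1), Tpx2 (13 and 1), Bub1 (11 and 1), Bub1b (9 and 1) and Mki67 (4 and 1). The 25 cells were chosen by these same genes, so these counts are a description.

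**Figure D1:**
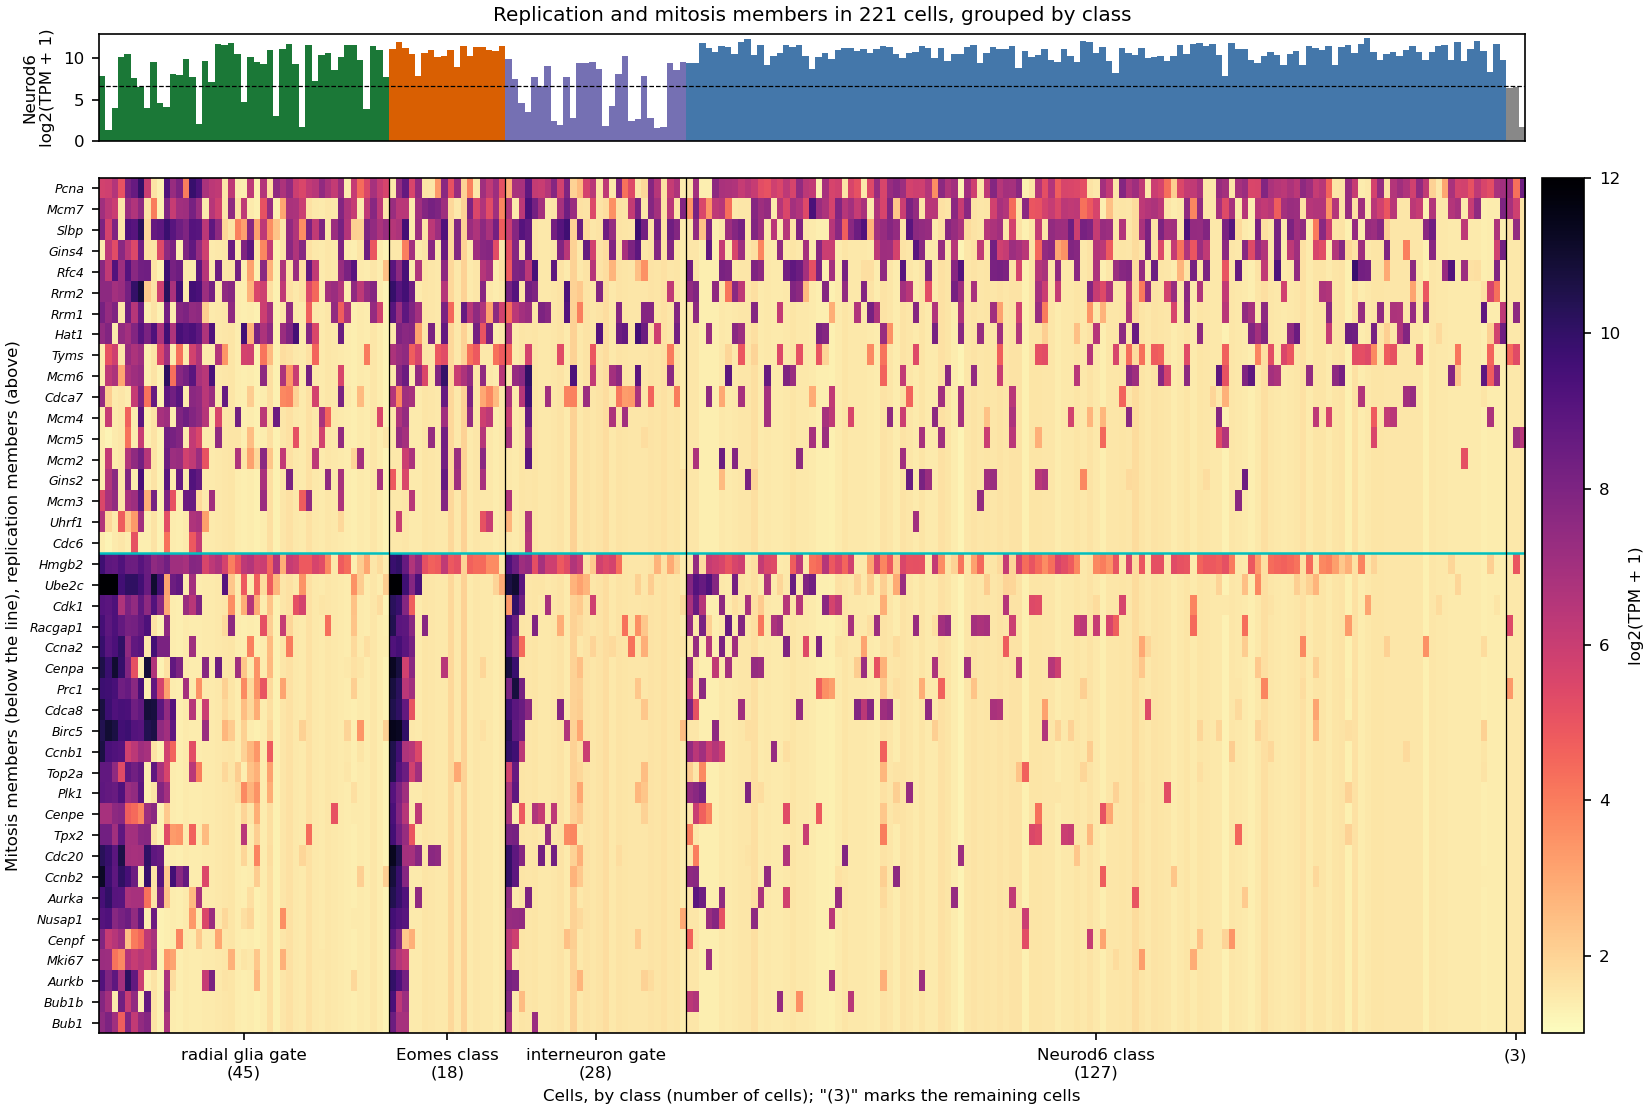
Level of the 41 genes (rows, ordered by the number of cells in which each was detected) in 221 cells (columns, grouped by class and ordered by mitosis genes), as log2(TPM + 1), with Neurod6 in bars above and a dashed line at 100 TPM. Dark blocks of mitosis genes stand at the left edge of the radial glia gate, the Eomes class and the interneuron gate, while replication genes are scattered over all classes.

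Mitosis genes moved together from cell to cell and replication genes less so. Over the 221 cells, the median Pearson correlation of log2 values was 0.64 for the 253 pairs of mitosis genes, from 0.35 (Hmgb2 and Racgap1) to 0.83 (Top2a and Prc1). It was 0.22 for the 153 pairs of replication genes, with 0.58 at the highest (Cdc6 and Uhrf1), and 0.20 for the 414 pairs across the groups. By rank (Spearman) the medians were 0.64 for mitosis pairs, 0.31 for replication pairs and 0.36 across the groups. Replication pairs thus lay below the pairs across the groups by rank. The points share their library and depth, and most values lie at the floor. The number of replication genes detected went with the number of all genes above the floor (Pearson r = 0.56 over 221 cells), more than the number of mitosis genes did (0.27). For numbers at 100 TPM or more both were 0.24. By rank (Spearman) the values were 0.54 and 0.16 above the floor, and 0.17 and 0.02 at 100 TPM or more, for replication and mitosis genes. A gene missed in a cell and a gene not expressed there cannot be told apart.

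At 100 TPM or more the cells fell into unequal states. At least 4 replication genes and at least 4 mitosis genes stood at that level in 21 cells, replication genes alone in 55, mitosis genes alone in 4, and neither in 141. Of the 25 cells high in mitosis genes, 7 came from pool 1 and 18 from pool 2. Above the floor, 72 cells held at least 4 of each. Another 8 cells had 10 or more mitosis genes detected with fewer than 4 at 100 TPM, and 7 of these 8 were pool 2 cells with the letter A, with summed mitosis levels over the 8 of 56.4 to 840 TPM.

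**Figure D2:**
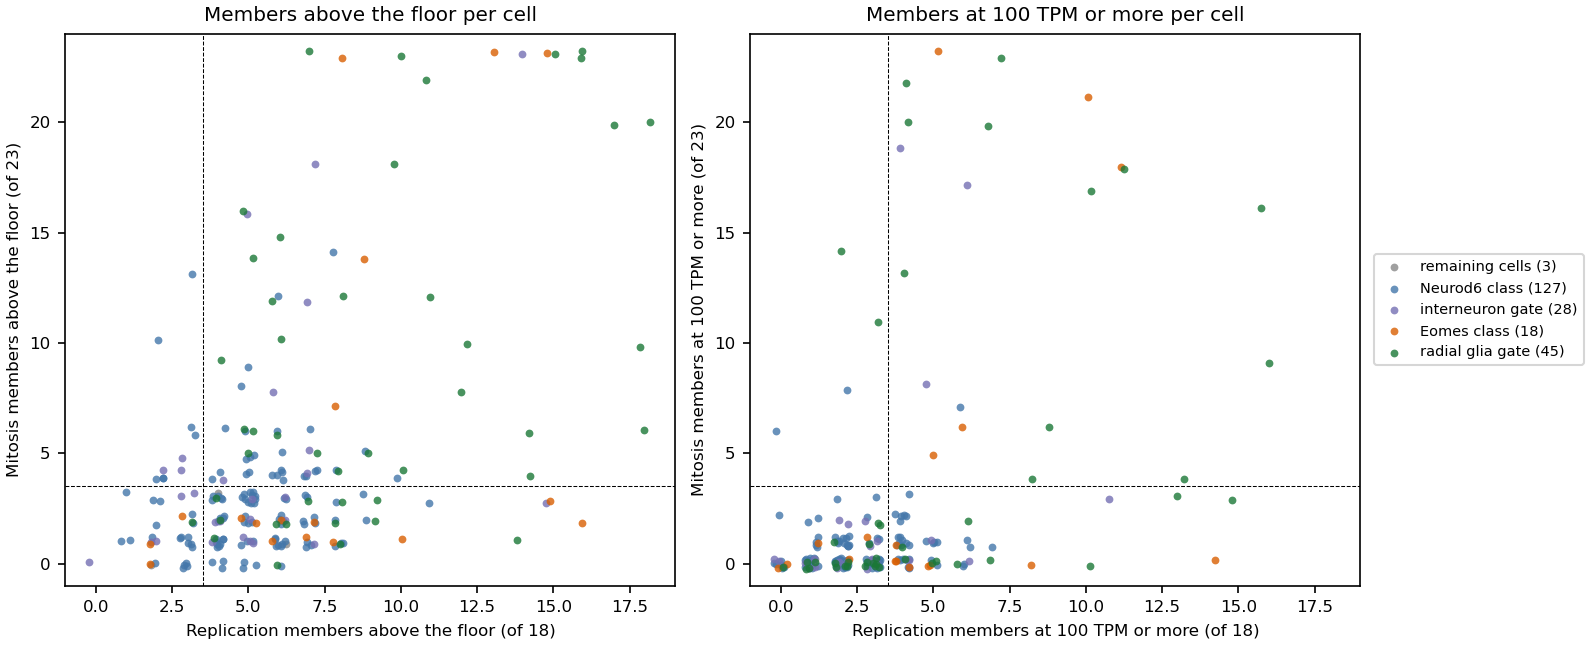
Number of replication genes (x axis, of 18) and mitosis genes (y axis, of 23) per cell, above the floor (left) and at 100 TPM or more (right), with points shifted slightly to avoid overlap, colours for class and dashed lines between 3 and 4 genes. The upper right field at 100 TPM holds 21 cells, most of them of the radial glia gate (12) and the Eomes class (5).

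Single cells show the range. Cell E8A of pool 2, in the Eomes class with Eomes at 29.96 and Neurod6 at 2197 TPM, had all 23 mitosis genes at 100 TPM or more, summing to 34289 TPM, beside 5 replication genes at that level. Cell E9B of pool 1, with Eomes at 130 and Neurod6 at 4097 TPM, had 21 mitosis genes at that level, summing to 23238 TPM. In H6A of pool 2, a cell with all 8 radial glia markers and Neurod6 at its floor of 1.37 TPM, 22 mitosis genes stood at 100 TPM or more and summed to 17205 TPM. These 3 cells are high in genes of late division, with Ube2c at 7905, 6244 and 4419 TPM.

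Other cells were highest in replication genes, with mitosis genes at 100 TPM ranging from many to none. H10A of pool 1 and E2A of pool 2, with all 8 radial glia markers each, had 16 replication genes at 100 TPM or more, summing to 8520 and 8424 TPM, and differed in mitosis genes at that level (16 and 9). G12A of pool 1, also with 8 radial glia markers and Neurod6 at 2.92 TPM, detected all 18 replication genes with 3 mitosis genes at 100 TPM. A5A of pool 2, with all 5 interneuron markers, had 11 replication genes at that level, among them Mcm6 at 1043 and Mcm2 at 498 TPM, and 3 mitosis genes in all above the floor. C12B of pool 1, in the Eomes class with Neurod6 at 1304 TPM, had 14 replication genes at that level and 0 mitosis genes, with Mcm6 at 983 and Slbp at 599 TPM.

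The radial glia gate and the Eomes class held 19 of the 25 cells high in mitosis genes. At 100 TPM or more, at least 4 mitosis genes were found in 14 of 45 cells of the radial glia gate (31.1%, interval 18.2 to 46.6%), 5 of 18 of the Eomes class (27.8%, 9.69 to 53.5%), 3 of 28 of the interneuron gate (10.7%, 2.27 to 28.2%) and 3 of 127 of the Neurod6 class (2.36%, 0.49 to 6.75%). By pool the counts were 5 of 19 and 9 of 26 in the radial glia gate, 2 of 11 and 3 of 7 in the Eomes class, 0 of 15 and 3 of 13 in the interneuron gate, and 0 of 74 and 3 of 53 in the Neurod6 class. Taking 3 counts as the limit that a count of 0 allows, in place of the exact interval, the share could be up to 20% of the 15 interneuron-gated cells and 4.05% of the 74 cells of the Neurod6 class. The exact interval for 0 of 74 reaches 4.86%. Both pools thus had the radial glia gate and the Eomes class above the Neurod6 class. Above the floor the shares were 68.9% in the radial glia gate, 27.8% in the Eomes class, 39.3% in the interneuron gate and 27.6% in the Neurod6 class, so the Eomes class lay above the Neurod6 class at 100 TPM and level with it at the floor. By pool, the shares above the floor were 52.6 and 80.8% in the radial glia gate, 13.3 and 69.2% in the interneuron gate, and 17.6 and 41.5% in the Neurod6 class, pool 2 being the higher each time.

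Replication genes were high in cells of every class. At 100 TPM or more, at least 4 were found in 13 of 18 cells of the Eomes class (72.2%, interval 46.5 to 90.3%), 22 of 45 of the radial glia gate (48.9%, 33.7 to 64.2%), 9 of 28 of the interneuron gate (32.1%, 15.9 to 52.4%) and 32 of 127 of the Neurod6 class (25.2%, 17.9 to 33.7%). The pools differed within classes: 14 of 19 and 8 of 26 in the radial glia gate, and 2 of 15 and 7 of 13 in the interneuron gate. Of the 32 cells of the Neurod6 class, 31 had replication genes alone and 1 had mitosis genes at that level too. Above the floor the shares lay between 71.4% in the interneuron gate and 97.8% in the radial glia gate.

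**Figure D3:**
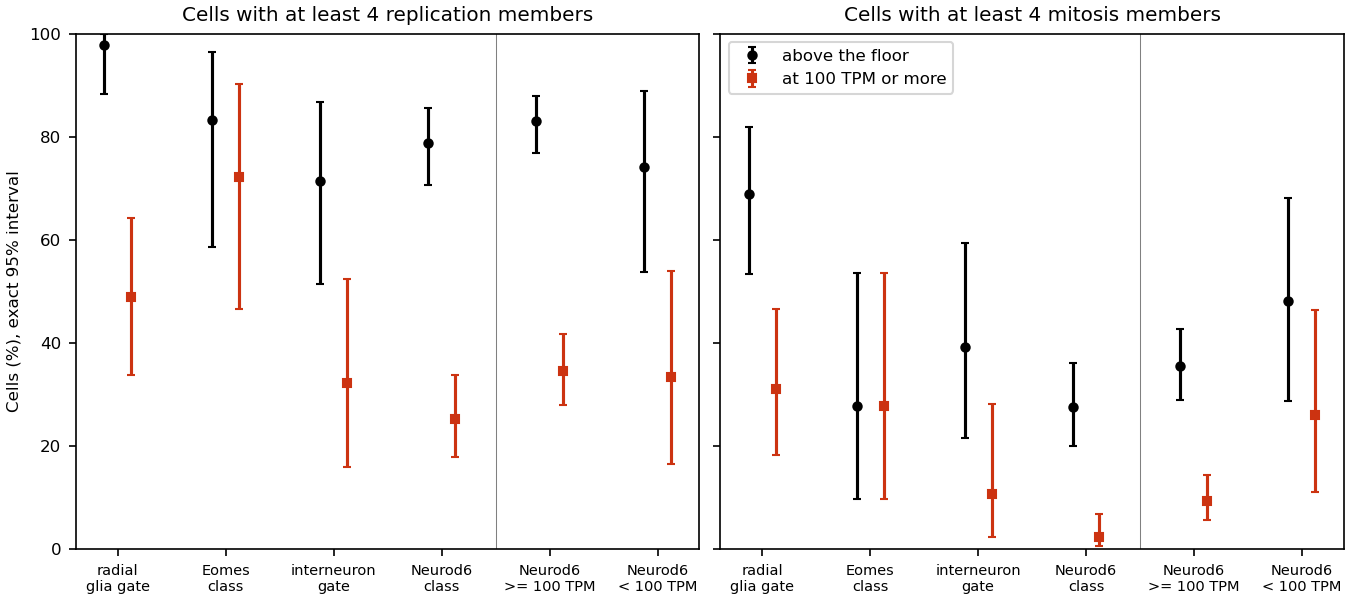
Share of cells with at least 4 replication genes (left) or mitosis genes (right) above the floor (black circles) and at 100 TPM or more (red squares), by class and by Neurod6 level, with exact 95% intervals. For mitosis genes at 100 TPM the radial glia gate (31.1%) and the Eomes class (27.8%) lie above the Neurod6 class (2.36%).

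The classes were compared by limma on mean log2(TPM + 1) per class and pool, with 2 pools per class as the replicates. Differences on this scale understate the change of low genes, and every adjusted p is limma's, by Benjamini-Hochberg over 10731 genes. Calls needed that p to lie under 0.05 and the log2 difference to reach 1. Cdc6, found in too few cells, was not tested. The fit had 4 residual degrees of freedom.

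Radial glia-gated cells had higher mean levels than the Neurod6 class in 16 of 17 replication genes and all 23 mitosis genes, with median log2 differences of 1.36 and 1.41 against 0.03 over all genes tested. With the log2 of mean TPM, which gives more weight to the highest cells, the mitosis median was 3.27. In both pools 15 of the 17 and 23 of the 23 were higher, against 33.1% of all genes. limma called none of the 40, while 0.168% of all genes were called higher. At an unadjusted p below 0.05, 6 replication and 18 mitosis genes were higher, against 6.32% of all genes.

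The replication genes with the widest gap served different steps. Hat1, a histone acetyltransferase, ran from 1.34 to 789 TPM (median 110) in the radial glia gate and from 1.44 to 378 (median 1.90) in the Neurod6 class, a log2 difference of 2.77 ± 0.86 (SE, adjusted p = 0.287). Rrm2 had a median of 77.9 TPM in the radial glia gate and 1.97 in the Neurod6 class, with ranges that overlap, and a log2 difference of 2.44 ± 0.63 (adjusted p = 0.181). Mcm3 was detected in 18 of 45 radial glia-gated cells and in 2 of 127 of the Neurod6 class, a log2 difference of 2.03 ± 0.45 with the lowest adjusted p of the 40 genes, 0.108. Next were Mcm2 (log2 difference 1.75 ± 0.49) and Cdca7 (1.64 ± 0.62). At the other end Mcm7 (-0.11 ± 0.60) was the single gene with a lower mean, below Pcna (0.61 ± 0.63) and Tyms (0.64 ± 0.52). Mcm7 and Pcna were detected in 70.9% and 82.7% of the Neurod6 class, close to their 73.3% and 84.4% in the radial glia gate.

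Among the mitosis genes Hmgb2 had the largest log2 difference, 2.39 ± 0.70 (SE, adjusted p = 0.248), with medians of 61.4 TPM in the radial glia gate and 12.3 in the Neurod6 class. Birc5, of the chromosomal passenger complex, followed at 2.2 ± 0.62, being detected in 21 of 45 and 12 of 127 cells. Ube2c (2.18 ± 0.85), Ccnb2 (1.76 ± 0.47) and Cdk1 (1.75 ± 0.53) came next. The smallest log2 differences were those of Bub1b (0.66 ± 0.32), Cenpf (0.80 ± 0.36) and Cenpe (0.88 ± 0.40).

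This comparison depended on the settings. With profiles weighted by their number of cells, 5 of 17 replication genes (Mcm2, Mcm3, Rrm2, Hat1 and Cdca7) and 15 of 23 mitosis genes were called higher, against 3.1% of all genes. With at least 6 of 8 markers in the gate, Mcm3, Cdk1 and Ccnb2 were called, against 1.12% of all genes, and with pool and letter as the unit Mcm3 was. Without the gated cells at Neurod6 of 100 TPM or more the medians were 2.56 and 3.02, with 0 of the 40 called and 3 cells left in pool 1, an alternative chosen after the data were seen.

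The Eomes class also had higher means than the Neurod6 class, in 16 of 17 replication genes (median log2 difference 0.86) and all 23 mitosis genes (1.22). With the log2 of mean TPM the mitosis median was 3.69, and with the radial glia gate at 4 of 8 markers 0.65. The replication median was 1.39 in pool 1 and 0.28 in pool 2. In both pools 11 and 23 of them were higher, against 31.4% of all genes. No gene of the table was called (0% of 10731), and 5 replication and 19 mitosis genes were higher at an unadjusted p below 0.05, against 5.95% of all genes. Rrm1 led the replication genes with 3.07 ± 0.93 (SE, limma adjusted p = 0.454): it was detected in 14 of 18 cells, with 1.78 to 516 TPM and a median of 113.3, against a median of 1.91 in the Neurod6 class. Mcm6 (2.18 ± 0.93), Tyms (1.74 ± 0.52), Cdca7 (1.498 ± 0.62) and Hat1 (1.25 ± 0.86) followed, and Gins4 (0.18 ± 0.75), Rfc4 (0.05 ± 0.57) and Pcna (-0.33 ± 0.63) were lowest. Among mitosis genes Cdc20 had the largest log2 difference, 2.79 ± 0.72, with 7 of 18 cells at 100 TPM or more and 2 of 127 in the Neurod6 class. Ube2c (2.15 ± 0.85), Top2a (2.05 ± 0.50), Hmgb2 (2.01 ± 0.70) and Ccnb1 (1.55 ± 0.58) followed, and Cenpf (0.85 ± 0.36), Plk1 (0.83 ± 0.43) and Mki67 (0.81 ± 0.29) were lowest.

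Between the radial glia gate and the Eomes class the genes lay on both sides. The median log2 differences were 0.47 for replication and 0.12 for mitosis genes, with 0.11 and 0.39 in pool 1 and 0.65 and -0.16 in pool 2. limma called 0 of the 40 (0.0186% of all genes), and 2 replication genes, Rrm2 and Mcm3, were higher at an unadjusted p below 0.05, against 5.7% of all genes. Rrm2 (1.67 ± 0.63), Hat1 (1.52 ± 0.86), Mcm3 (1.45 ± 0.45), Rfc4 (1.06 ± 0.57) and Pcna (0.95 ± 0.63) had the highest log2 differences in favour of the radial glia gate, and Rrm1 (-1.61 ± 0.93), Tyms (-1.10 ± 0.52) and Mcm6 (-0.87 ± 0.93) lay on the Eomes side. The subunits of ribonucleotide reductase, Rrm1 and Rrm2, therefore had means on opposite sides, and neither was called. Of the mitosis genes, Cdk1 (0.81 ± 0.53), Birc5 (0.74 ± 0.62), Cdca8 (0.69 ± 0.60), Ccnb2 (0.66 ± 0.47) and Hmgb2 (0.38 ± 0.70) lay on the radial glia side, and Cdc20 (-1.29 ± 0.72), Top2a (-0.48 ± 0.50) and Aurka (-0.38 ± 0.47) on the Eomes side. This contrast does not part cells with Eomes from cells without it, since 16 of the 45 radial glia-gated cells had Eomes above the floor. This comparison and those with the Neurod6 class share profiles, so they are not independent.

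For the interneuron gate the pools went apart. Its median log2 differences from the Neurod6 class were 0.19 for replication and 0.50 for mitosis genes over both pools, but -0.21 and -0.02 in pool 1 and 0.56 and 0.97 in pool 2. limma called none of the 40 (0.457% of all genes were), and 1 replication gene, Cdca7, and 0 mitosis genes were higher at an unadjusted p below 0.05, against 2.48% of all genes. Cdca7 (1.41 ± 0.62), Rrm1 (1.27 ± 0.93), Mcm6 (0.96 ± 0.93), Hat1 (0.60 ± 0.86) and Slbp (0.57 ± 0.72) were highest, and Rfc4 (-0.59 ± 0.57), Gins2 (-0.35 ± 0.59) and Pcna (-0.27 ± 0.63) lowest. Of the mitosis genes Cdc20 (1.30 ± 0.72), Birc5 (1.11 ± 0.62), Hmgb2 (1.03 ± 0.70), Cdca8 (0.81 ± 0.60) and Prc1 (0.77 ± 0.60) were highest, and Aurka (0.12 ± 0.47), Racgap1 (0.15 ± 0.48) and Bub1b (0.15 ± 0.32) lowest. The 3 interneuron-gated cells high in mitosis genes, all of pool 2, also held 3, 5 and 7 of the 8 radial glia markers. One of them, D11A, had 6727 genes above the floor, the most of all cells.

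**Figure D4:**
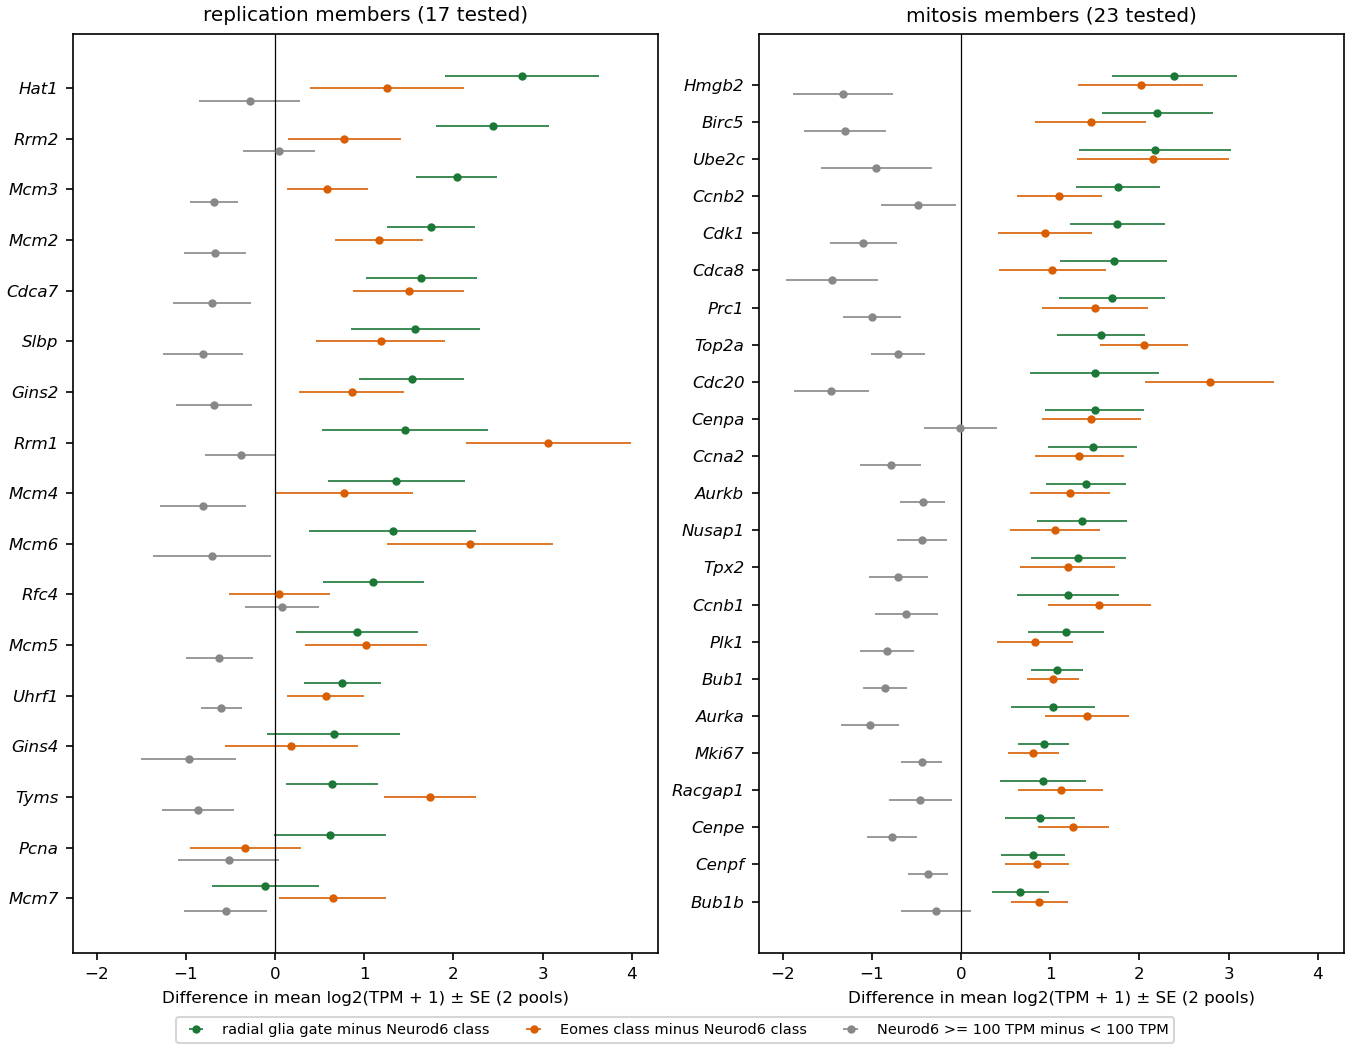
Log2 difference of each tested gene (points) with its SE (bars) for the radial glia gate (green) and the Eomes class (orange) against the Neurod6 class, and for cells at Neurod6 of 100 TPM or more against the rest (grey). Green and orange points of all 23 mitosis genes lie right of 0 and the grey ones left of it, and none of these differences was called.

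Cells with Neurod6 at 100 TPM or more did carry these genes. They numbered 194 (110 and 84 by pool), against 27 below that level (12 and 15). The 194 were 127 cells of the Neurod6 class, 34 of the radial glia gate, 18 of the Eomes class and 15 of the interneuron gate. Of the 27, 13 were in the interneuron gate and 11 in the radial glia gate, and 3 were the remaining cells. The comparison is therefore not one of neurons against progenitors. At least 4 replication genes were detected in 161 of the 194 (82.99%, interval 76.9 to 87.99%) and 20 of the 27 (74.1%, 53.7 to 88.9%). At 100 TPM or more the shares were 34.5% (27.9 to 41.7%) and 33.3% (16.5 to 53.96%). For mitosis genes the shares were 35.6% (28.8 to 42.7%) and 48.1% (28.7 to 68.1%) above the floor, and 9.28% (5.59 to 14.3%) and 25.9% (11.1 to 46.3%) at 100 TPM or more. Of the 9 cells that detected all 23 mitosis genes, 8 had Neurod6 at 100 TPM or more. The 3 genes with the most detections among the 194 cells were Pcna (160), Hmgb2 (141) and Mcm7 (135).

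Most of the mitosis-high cells at that Neurod6 level also met a progenitor or interneuron gate. Of 18 such cells, 8 were in the radial glia gate, 5 in the Eomes class, 2 in the interneuron gate and 3 in the Neurod6 class. Within the radial glia gate, mitosis genes were high in 8 of 34 cells at Neurod6 of 100 TPM or more (23.5%, interval 10.7 to 41.2%) and 6 of 11 below it (54.5%, 23.4 to 83.3%), intervals that overlap. The 3 cells of the Neurod6 class, B5B, A5B and A4B of pool 2, had Neurod6 at 690, 3692 and 669 TPM and summed mitosis levels of 2473, 1780 and 1626 TPM, with 7, 6 and 8 genes at 100 TPM or more. Mki67 was at the floor in all 3. They held 3, 1 and 2 of the 8 radial glia markers, with Hes5 at 143, 237 and 649 TPM. Hes1, Slc1a3, Sox9 and Sox2 were at the floor in all 3. Their summed excitatory neuron markers were 1156 to 4024 TPM, a sum that counts Neurod6, the gene by which these cells were sorted. Their summed intermediate progenitor markers were 260 to 568 TPM, with Eomes, Neurog2, Neurog1 and Mfap4 at the floor. Of the 6 oligodendrocyte precursor markers only Olig1 was above the floor, at 2.40 to 252 TPM. One of the 3 cells, B5B, held both Xist and a Y-linked transcript. Without all such cells, 27.8% of the Neurod6 class had at least 4 mitosis genes above the floor, against 27.6% with them. At 100 TPM or more, B5B is itself among the 3 cells counted, so that count is lower without it.

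On profile means, cells at Neurod6 of 100 TPM or more had lower values than the rest in 15 of 17 replication genes and all 23 mitosis genes, with median log2 differences of -0.67 and -0.77 against 0.10 over all genes. The replication median was -0.32 in pool 1 and -0.52 in pool 2, and -0.15 without pool 2 cells with the letter A, which was chosen after the data were seen. The mitosis median was -0.49 without the cells holding Xist and a Y-linked transcript, and -0.46 with a pseudocount of 10. With the log2 of mean TPM the replication median was -1.06. In both pools 11 and 21 were lower, against 20.5% of all genes. This fit had 2 residual degrees of freedom, and limma called no gene of the table (0% of 10731). At an unadjusted p below 0.05, 2 replication and 9 mitosis genes were lower, against 3.38% of all genes. With pool as a replicate block, 24 genes of the table were called higher and 4 lower, and still 0 of the 40. The largest gaps among the mitosis genes were those of Cdc20 (-1.45 ± 0.42 SE, limma adjusted p = 0.286), Cdca8 (-1.45 ± 0.52) and Hmgb2 (-1.32 ± 0.56), and the smallest those of Cenpa (-0.01 ± 0.41), Bub1b (-0.28 ± 0.40), Cenpf (-0.37 ± 0.23), Aurkb (-0.43 ± 0.25) and Nusap1 (-0.44 ± 0.28). Among replication genes Gins4 (-0.97 ± 0.54), Tyms (-0.87 ± 0.41) and Slbp (-0.81 ± 0.45) were lowest, and Rfc4 (0.08 ± 0.41), Rrm2 (0.05 ± 0.40), Hat1 (-0.29 ± 0.56), Rrm1 (-0.38 ± 0.40) and Pcna (-0.52 ± 0.57) were highest.

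**Figure D5:**
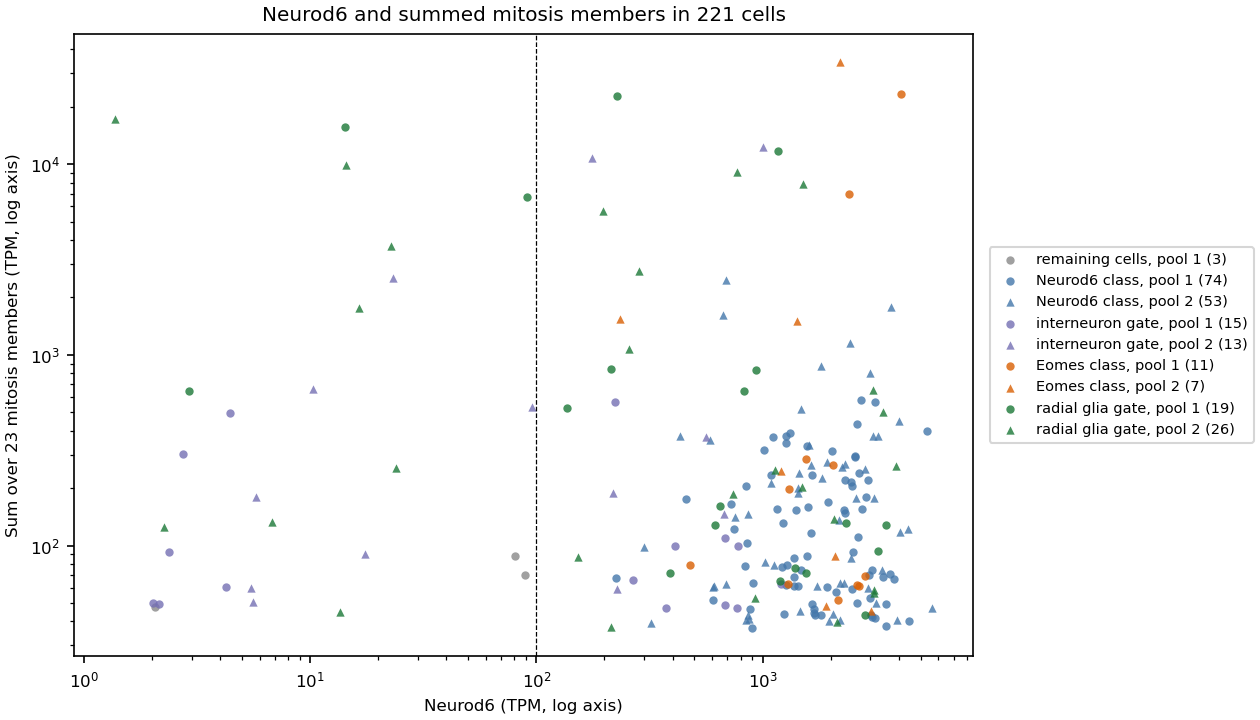
Neurod6 (x axis, TPM, log scale) against the sum of the 23 mitosis genes (y axis, TPM, log scale) in each of 221 cells, with colours for class, circles for pool 1, triangles for pool 2 and a dashed line at 100 TPM. The highest sums, 34289 and 23238 TPM, belong to Eomes class cells right of the line, and cells of the Neurod6 class reach at most 2473 TPM.

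Other genes of the same processes, listed by function, mostly lay on the same side, with smaller median gaps. The lists were set with earlier results of these data known, so they are no independent check. Single genes, such as Pbk and Pttg1 below, had wider gaps than any mitosis member in their comparison. For the radial glia gate against the Neurod6 class, 47 of 50 other replication genes tested had higher means (median log2 difference 0.72) and 54 of 56 other mitosis genes did (0.96), and limma called 0 of either list, against 0.168% of all genes called higher. At an unadjusted p below 0.05, 17 of the 50 and 33 of the 56 were higher, against 6.32% of all genes. Pbk (2.78 ± 0.54), Cdca3 (2.33 ± 0.64), Spc24 (1.97 ± 0.51), Tacc3 (1.92 ± 0.44) and Spc25 (1.66 ± 0.63) led the mitosis list, and Lmnb1 (-0.17 ± 0.51), Cdc25b (-0.03 ± 0.37) and Arhgap11a (0.03 ± 0.19) closed it. Of the replication list Rpa2 (2.05 ± 0.96), Tipin (1.99 ± 0.70), Asf1b (1.69 ± 0.45), Cdc45 (1.47 ± 0.52) and Chaf1b (1.42 ± 0.77) were highest, and Prim2 (-0.51 ± 0.40), Wdhd1 (-0.06 ± 0.39) and E2f7 (-0.01 ± 0.14) lowest. For the Eomes class the medians were 0.48 and 0.91, again with 0 called. For cells at Neurod6 of 100 TPM or more they were -0.40 and -0.52, with 40 of 50 and 52 of 56 lower and 0 called (0% of all genes). In both pools 33 and 45 were lower, against 20.5% of all genes, and 12 and 16 were lower at an unadjusted p below 0.05, against 3.38%. The separase inhibitor Pttg1 had the largest gap there, -2.20 ± 0.54.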

How the data were processed

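Single-cell cDNA was made on a Fluidigm C1 with the SMARTer v4 kit and sequenced from Nextera XT libraries, per the labels' protocols. The deposited values are TPM, which the authors made from reads on mm10 with Cufflinks 2.2.1, Bowtie2 2.2.6 and TopHat2 2.0.14, per the submitters' processing notes. Each cell sums to 1000000 TPM, no value is 0, and read depth is unknown. Genes above the floor numbered 2146 to 6727 per cell (median 4035). The highest correlation between any 2 cells was 0.734. The members, lists, gates and tests were chosen with earlier results of these data known.

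Values were taken as log2(TPM + 1) and averaged per class and pool for classes with at least 4 cells in each pool. Tested were genes with 10 or more cells above the floor, without gate markers and spike-ins (10731), in limma 3.58.1 (R 4.3.3, eBayes with trend and robust), two-sided. The classes of one pool share its animals, so pool numbers pair the classes by design, although the deviations of the pools correlated by only -0.04 to 0.04 between classes. P-values measure the spread between 2 pools. In the class comparisons that spread was estimated jointly over all fitted classes, the interneuron gate among them. The SE and p of a comparison therefore also draw on classes outside it. The alternatives were other pseudocounts, filters, gates, levels and summaries, weights by cell number, the pool as a replicate block, leaving out each pool, and leaving out sets of cells. Named per comparison were the 5 highest and 3 lowest log2 differences of each list. On simulated data, 100 genes were raised by a log2 difference of 2 and 100 by 4. Of these, the fit called 8 and 62 for Neurod6 at 100 TPM or more, with 0 false calls. For the radial glia gate against the Neurod6 class it called 36 and 94, with 3 false calls. A gene left uncalled can therefore still differ. Gene starts and promoter letters are from RefSeq tables. Of the 6 interneuron markers listed, 5 were in the table.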

Additional observations from a re-analysis of the deposited data

How the results depend on the processing

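No member changed its call outside the radial glia gate against the Neurod6 class. There, 5 replication and 15 mitosis genes were called with profiles weighted by cells, 1 and 2 with the gate at 6 of 8 markers, and 1 replication gene with pool and letter as the unit, where the main fit called 0. With the pool as a replicate block, 0 members were called in every comparison, so the pairing changed no member's call. Over all genes, calls for the radial glia gate against the Neurod6 class went from 18 higher to 333 higher when weighted, 120 with 6 of 8 markers, 61 by pool and letter, 6 with the block, and 2 without pool 2 cells with the letter A. They went to 0 with no filter on low values, without cells holding Xist and a Y-linked transcript, and with the gate at 4 of 8 markers. For Neurod6 at 100 TPM or more they went from 0 to 32 and 5 when weighted, 26 and 2 with no filter, and 24 and 4 with the block. The radial glia gate without cells at Neurod6 of 100 TPM or more left 3 cells in pool 1 and the Eomes class none, so the planned form of that setting could not be fitted. The signs of group medians turned in these cases: for the interneuron gate, -0.21 and -0.02 without pool 2 and -0.13 (replication) without pool 2 cells with the letter A, a set chosen after the data were seen; for mitosis genes between the radial glia gate and the Eomes class, -0.16 without pool 1, -0.27 without cells holding Xist and a Y-linked transcript, and -0.52 with the log of mean TPM. Over the alternatives, the medians of the radial glia gate against the Eomes class ran from 0.09 to 0.89 (replication) and from -0.52 to 0.64 (mitosis), and those of the interneuron gate from -0.21 to 0.56 and from -0.02 to 1.24. The cause was not tested.

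The shares of cells with at least 4 genes moved as the level and number required moved. For replication genes they became, at 100 TPM, 48.9% (radial glia gate), 32.1% (interneuron gate), 25.2% (Neurod6 class), 34.5% (Neurod6 at 100 TPM or more) and 33.3% (below). At 10 TPM the share at Neurod6 of 100 TPM or more was 74.7%. With 3 genes they were 100% (radial glia gate), 90.6% (Neurod6 class), 91.8% and 88.9% (Neurod6 above and below 100 TPM), and with 6 genes 77.8% (radial glia gate), 35.7% (interneuron gate), 37.8% (Neurod6 class) and 47.4% (Neurod6 at 100 TPM or more). For mitosis genes they became, at 100 TPM, 31.1%, 10.7%, 2.36%, 9.28% and 25.9% in the order first given, and at 10 TPM 42.2%, 14.3%, 11% and 17% for the first 4. With 3 genes they were 48% (Neurod6 class) and 52.6% (Neurod6 at 100 TPM or more), and with 6 genes 17.9% (interneuron gate), 9.45% (Neurod6 class) and 19.6% (Neurod6 at 100 TPM or more). Without pool 2 cells with the letter A, the replication share was 100% in the radial glia gate and the mitosis share 27.9% at Neurod6 of 100 TPM or more. Leaving out each pool gave 96.2 to 100% for replication in the radial glia gate, and for mitosis 52.6 to 80.8% there, 13.3 to 69.2% in the interneuron gate, 17.6 to 41.5% in the Neurod6 class, 21.8 to 53.6% at Neurod6 of 100 TPM or more and 25 to 66.7% below it. Depth is unknown, so a low count of detected genes sets no limit on expression.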
